A study of Mus musculus with 6 samples.

Results

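Cers2, Cers4, Cers5 and Cers6 encode ceramide synthases, Sphk1 and Sphk2 sphingosine kinases, S1pr1, S1pr2 and S1pr3 receptors for sphingosine-1-phosphate (S1P), and Sgpl1 the S1P lyase. These 10 genes were taken by name from the 21878 genes of a deposited count table of mouse thyroid, and all 10 passed the filter on low counts. They were chosen with their measured differences between the groups known, and those differences are therefore given as a description, without a test. RNA sequencing was done on thyroid glands of female mice at 12 weeks of age, with 3 libraries in each group. The Thy-Tet1-/- mice carried floxed Tet1 and a Cre recombinase that is active in thyroid follicular epithelial cells, and the Thy-Tet1+/+ mice were their wild-type littermates. Other cells of the dissected gland, such as endothelium, lie outside the reach of this Cre. Whether the controls carried Cre or a floxed allele is not given in the sources used here. Because each library holds RNA of a whole gland, fewer cells of a type and less RNA per cell cannot be told apart.

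Sphingolipids are built on a long-chain base. Ceramide synthases attach a fatty acid to that base, and each enzyme prefers acyl chains of certain lengths: Cers2 very long chains, Cers4 long to very long chains, and Cers5 and Cers6 the shorter palmitoyl chain. Ceramidases release sphingosine from ceramide, and sphingosine kinases phosphorylate it to S1P. S1P is exported and acts on G protein-coupled receptors, or is cleaved by the lyase in the endoplasmic reticulum. S1pr1 is coupled to Gi and is abundant in endothelium, while S1pr2 and S1pr3 also couple to Gq and G12/13.

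Tet1, the targeted gene, was checked first. The table gives it 48, 71 and 62 counts in the Thy-Tet1+/+ glands and 172, 162 and 241 in the glands labelled Thy-Tet1-/-. The higher counts thus lay in the group labelled as the knockout, opposite to a loss of Tet1 RNA, and the group is called by its label throughout. The study reported less TET1 protein in Thy-Tet1-/- thyroid tissue by immunohistochemistry. The table counts whole genes, and reads on the floxed exon were not analysed here, so these counts cannot show whether that exon was lost. Total counts ranged from 8867683 to 19950898 per library. A level of 3 counts was thus 0.150 to 0.338 CPM (counts scaled to the library size, here the raw total). This level reflects counting error alone, and no gene was dropped by it. The deposited protocol text speaks of retinas, but the 12 thyroid follicular cell markers summed to between 194098 and 317195 CPM in every library. The mean log2 CPM of those markers was 7.66 to 7.76 in the Thy-Tet1+/+ glands and 7.29 to 7.48 in the glands labelled Thy-Tet1-/-, without overlap. Of the 12 markers, 4 were without overlap lower and 2 higher, beside 14.3% and 12.5% of all tested genes. Tshr, the receptor of thyrotropin, had a log2 fold change of -2.16. Without Tshr the means of the other 11 were 7.78 to 7.90 and 7.60 to 7.78, so that the groups met at the second decimal. The part of follicular cell content in the results below was not tested. Neighbouring tissue differed between glands: 10 skeletal muscle markers summed to 929 to 7456 CPM in the Thy-Tet1+/+ group and to 18.6 to 8273 CPM in the other, and 3 parathyroid markers to 89.1 to 12919 CPM and 4234 to 9313 CPM. The summed ranges of the C cell (4820 to 20939 against 10251 to 16964 CPM), fibroblast (884 to 1112 against 941 to 1123 CPM), adipocyte (147 to 449 against 325 to 1328 CPM), Schwann cell (278 to 508 against 213 to 338 CPM), smooth muscle and pericyte (400.0 to 759 against 339 to 761 CPM) and airway ciliated cell markers (21.1 to 47.1 against 22.1 to 28.3 CPM) overlapped between the groups.

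TET1 is a DNA dioxygenase whose CXXC domain recognises CpG-rich DNA, so the bases before the start sites of a lower and a higher gene are shown with each CpG in capitals. The 250 bases before the RefSeq start (assembly GRCm38.p6) were available for 9 of the 10 genes, all except S1pr1. For Cers6 they span chr2:68861191-68861440 on the plus strand and hold 23 CpG. For S1pr2 they span chr9:20976794-20977043 on the minus strand and hold 14 CpG. Both are printed 5′ to 3′.
Cers6: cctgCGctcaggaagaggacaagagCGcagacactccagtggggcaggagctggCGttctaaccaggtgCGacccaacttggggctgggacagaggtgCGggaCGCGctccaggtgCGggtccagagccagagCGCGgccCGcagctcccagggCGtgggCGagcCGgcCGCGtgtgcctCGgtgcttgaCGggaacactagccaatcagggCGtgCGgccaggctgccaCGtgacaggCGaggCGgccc
S1pr2: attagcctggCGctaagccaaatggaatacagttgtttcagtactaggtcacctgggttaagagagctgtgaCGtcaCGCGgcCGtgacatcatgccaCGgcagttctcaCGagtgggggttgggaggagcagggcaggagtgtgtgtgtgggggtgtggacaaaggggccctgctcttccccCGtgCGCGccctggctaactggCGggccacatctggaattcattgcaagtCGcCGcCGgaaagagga
Over the 20596 windows of this length in the RefSeq table the median was 8 CpG with quartiles of 2 and 18, and all 9 of these genes were at or above that median. The 20596 windows were not limited to genes that passed the filter on low counts, as these 9 had. Nothing is therefore read from that comparison or from the shares of motifs below. Of the 9, Sgpl1, with 31, held the most, and S1pr3, with 9, the fewest. The E-box CACGTG, a palindrome and therefore the same on both strands, lay 22 to 17 bases before the Cers6 start and also in the windows of Cers2 (129 to 124 bases before) and Sphk1 (102 to 97 bases before). It is present in 6.43% of all windows. The cyclic AMP response element TGACGTCA, also a palindrome, lay 181 to 174 bases before the S1pr2 start, and 1.91% of all windows hold it. The D-box of the clock factor Dbp, searched as TTATGTAA and TTACGTAA on both strands, was in none of the 9 windows and in 0.942% of all windows. These are matches of letters, and binding was not measured.

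Among the ceramide synthases, Cers6 was lower in the glands labelled Thy-Tet1-/-, Cers4 was higher, and Cers2 and Cers5 overlapped between the groups. Cers6 (chr2:68861441-69114282, plus strand, GENCODE M21) had 172, 119 and 169 CPM in the Thy-Tet1+/+ glands and 55.5, 54.5 and 54.4 CPM in the glands labelled Thy-Tet1-/-. All 3 of the latter were below all 3 of the former, and their values lay within 1.02 times of each other. Means were 153 ± 29.5 and 54.8 ± 0.624 CPM (SD, n = 3), which is 0.357 times the Thy-Tet1+/+ level, with a log2 fold change of -1.48 (standard error 0.16).

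Cers4 (chr8:4493026-4531680, plus strand) had 25.6, 37.1 and 23.1 CPM in Thy-Tet1+/+ and 37.6, 37.4 and 43.9 CPM in the glands labelled Thy-Tet1-/-. No overlap was seen, but Thy-Tet1+/+ replicate 2 came close to the other group. Its log2 fold change was 0.47 (standard error 0.20), and 0.70 without that library. Exons of Cers4 share 886 bases with the pseudogene Vmn2r-ps89 and 214 bases with Gm36956 on the opposite strand. The count table lists neither. Cers2 (chr3:95314791-95323599, plus strand), the synthase with the highest level, had 194, 231 and 229 CPM against 202, 181 and 180 CPM. The lowest Thy-Tet1+/+ library lay among the other group, and the log2 fold change was -0.22 (standard error 0.12). Its exons share 75 bases with Setdb1 and 144 bases with 6330562C20Rik on the opposite strand, and the count table does not list the latter. Cers5 (chr15:99734881-99772885, minus strand) had 40.3, 58.0 and 59.9 CPM against 53.7, 50.6 and 55.9 CPM. The glands labelled Thy-Tet1-/- all lay inside the range of the Thy-Tet1+/+ glands, with 0.02 as log2 fold change (standard error 0.17).

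The makeup of the synthase family, which does not depend on how libraries are scaled, was computed from counts per kilobase of each gene's longest transcript. Cers6 made up 15.5% ± 3.64 (SD, n = 3) of the summed level of the 4 synthases in Thy-Tet1+/+ and 6.73% ± 0.25 (SD, n = 3) in the glands labelled Thy-Tet1-/-. Cers2 took 69.1% ± 1.94 and 73.0% ± 1.55, Cers5 13.3% ± 1.75 and 16.6% ± 0.99, and Cers4 2.13% ± 0.54 and 3.62% ± 0.42 (SD, n = 3 for each). The share of Cers6 was thus smaller, and those of Cers4 and Cers5 larger, in each gland of the second group. For Cers2 the nearest glands of both groups stood at 71.4%, and its ranges overlapped with the principal transcript lengths. Counts of Cers6 for each count of Cers5, the other synthase that makes C16 ceramide, were 4.26, 2.06 and 2.82 in Thy-Tet1+/+ and 1.03, 1.08 and 0.97 in the glands labelled Thy-Tet1-/-. The summed level of the 4 synthases was 142 ± 11.6 and 116 ± 5.69 CPM per kilobase (SD, n = 3).

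Of the kinases, Sphk2, the more abundant one, was lower in the glands labelled Thy-Tet1-/- and Sphk1 varied too much between glands to be placed. Sphk2 (chr7:45709467-45718002, minus strand) had 45.1, 44.2 and 51.9 CPM in Thy-Tet1+/+ and 37.5, 34.7 and 39.4 CPM in the glands labelled Thy-Tet1-/-. The groups did not overlap, and the log2 fold change was -0.34 (standard error 0.12), or 0.791 times the Thy-Tet1+/+ mean. Sphk1 (chr11:116530925-116536674, plus strand) had 1.78, 9.36 and 2.11 CPM against 2.18, 1.01 and 3.56 CPM. Its exons share 192 bases with Gm29292 on the opposite strand, which the count table does not list. The value of Thy-Tet1+/+ replicate 2 rested on 175 counts, against 15 to 70 counts in the others. The log2 fold change was -0.98 (standard error 0.76) and 0.20 without that library, so its sign was set by 1 gland. The same library had the highest sum of macrophage markers, 425 CPM. This sum was 124 to 220 CPM in the other Thy-Tet1+/+ glands and 186 to 215 CPM in the second group. That library also had the highest follicular cell and Schwann cell sums of all libraries. Its parathyroid, C cell, blood endothelium and airway ciliated cell sums were the lowest. The part of any of these in the Sphk1 level was not tested.

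The last exon of Sphk2 contains the last exon of Dbp, a clock-controlled transcription factor read in the opposite direction, and 539 exonic bases are common to both. Dbp had 308, 389 and 490 counts in Thy-Tet1+/+ and 4086, 4322 and 3222 counts in the glands labelled Thy-Tet1-/-. This was a log2 difference of 2.93 (standard error 0.26). The mean log2 CPM of 14 clock genes, Dbp among them, was 4.83 to 5.28 in the first group and 5.51 to 5.74 in the second. Of the 14, 9 were without overlap higher and 4 lower, beside 12.5% and 14.3% of all tested genes. The mean thus pools genes that differed in opposite directions. Without Dbp, the mean of the other 13 was 4.86 to 5.28 and 5.37 to 5.58. The hour of collection is not given in the sources used here. Sphk2 counts were thus lower in the group in which its overlapping neighbour was higher. Exons of Sphk2 also share 373 bases with Rpl18 on the opposite strand, which had 231 to 307 CPM in Thy-Tet1+/+ and 280.2 to 312 CPM in the other group. Whether the counting used strand is not given in the sources used here, so the part of the Sphk2 counts that came from these neighbours is uncertain.

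**Figure D1:**
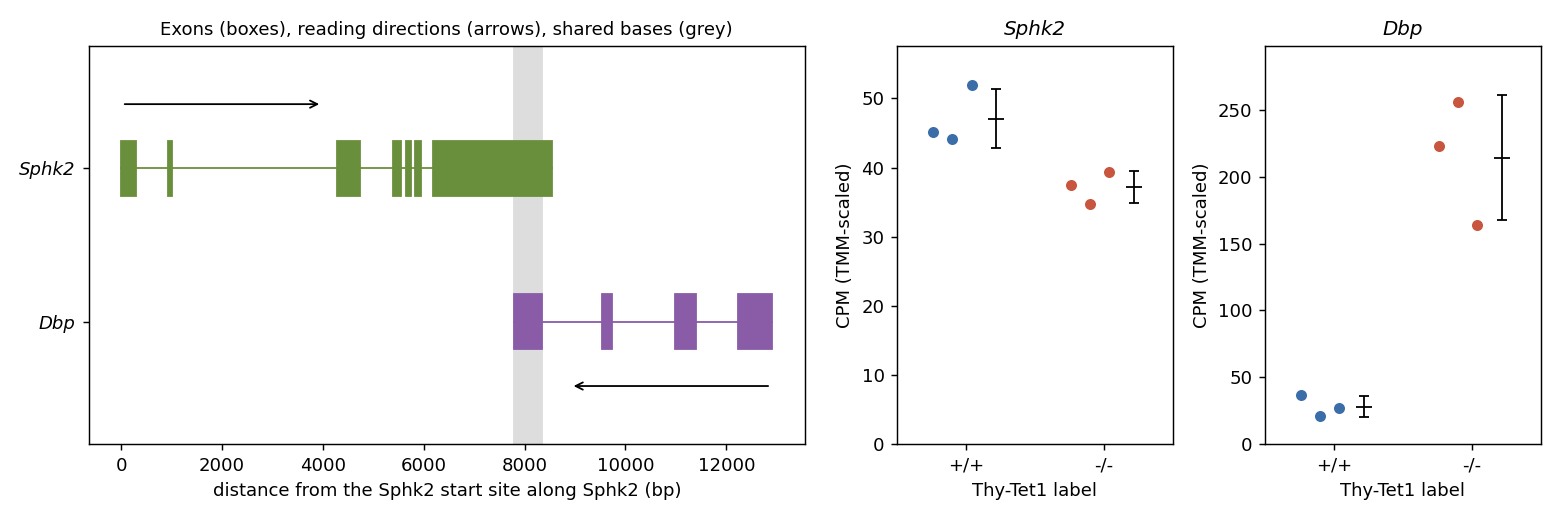
The left panel maps the exons (boxes) of Sphk2 and Dbp by distance in base pairs from the Sphk2 start site, with arrows for the reading directions and grey for the 539 bases common to the exons of both genes. The other panels give TMM-scaled CPM of each gene by library (dots) with mean and SD (n = 3): Sphk2 was lower and Dbp higher in all 3 glands labelled Thy-Tet1-/-.

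The receptors differed in opposite directions: S1pr1 was lower in the glands labelled Thy-Tet1-/-, and S1pr2 and S1pr3 were higher. S1pr1 (chr3:115710433-115715072, minus strand) had 45.3, 44.8 and 46.1 CPM in the Thy-Tet1+/+ glands and 23.5, 25.4 and 23.9 CPM in the glands labelled Thy-Tet1-/-. The values of each group lay close together and far from the other group. Means were 45.4 ± 0.677 and 24.3 ± 0.968 CPM (SD, n = 3), a ratio of 0.534, with -0.90 as log2 fold change (standard error 0.10). The summed level of 10 blood endothelium markers, where S1pr1 is abundant, was 704, 657 and 805 CPM in Thy-Tet1+/+ and 908, 949 and 663 CPM in the glands labelled Thy-Tet1-/-. The groups overlapped in this sum. Of the 10 markers, 1 was without overlap, higher in the second group, as were 12.5% of all tested genes. The part of endothelial content in the S1pr1 level was not tested.

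S1pr2 (chr9:20962361-20976781, minus strand), which restrains migration through G12/13, had 15.5, 18.1 and 21.7 CPM in Thy-Tet1+/+ and 28.8, 30.3 and 28.2 CPM in the glands labelled Thy-Tet1-/-. All values of the second group were above the first. The mean was 18.5 ± 3.09 CPM against 29.1 ± 1.13 CPM (SD, n = 3), or 1.58 times, with a log2 fold change of 0.65 (standard error 0.15). S1pr3 (chr13:51408639-51422797, plus strand), a receptor of vascular smooth muscle among other cells, had 5.10, 5.94 and 5.99 CPM against 7.52, 6.46 and 6.50 CPM. The glands labelled Thy-Tet1-/- were all higher, but the nearest pair of libraries was less than 1 CPM apart, and the log2 fold change of 0.26 was close to its standard error of 0.22. Exons of S1pr3 share 45 bases with Gm32834 on the opposite strand, which the count table does not list.

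Within each library, counts of S1pr1 for each count of S1pr2 were 2.92, 2.47 and 2.13 in Thy-Tet1+/+ and 0.82, 0.84 and 0.85 in the glands labelled Thy-Tet1-/-. S1pr1 thus had more counts than S1pr2 in every Thy-Tet1+/+ gland and fewer in every gland of the other group. Per kilobase, S1pr1 remained the larger in both groups, with 78.2% ± 2.25 and 56.7% ± 1.01 of the summed level of the 3 receptors. S1pr2 took 15.1% ± 1.95 and 32.4% ± 0.28, and S1pr3 6.67% ± 0.44 and 10.9% ± 1.10 (SD, n = 3 for each). The summed level of the 3 receptors was 19.1 ± 0.731 and 14.0 ± 0.424 CPM per kilobase (SD, n = 3).

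**Figure D2:**
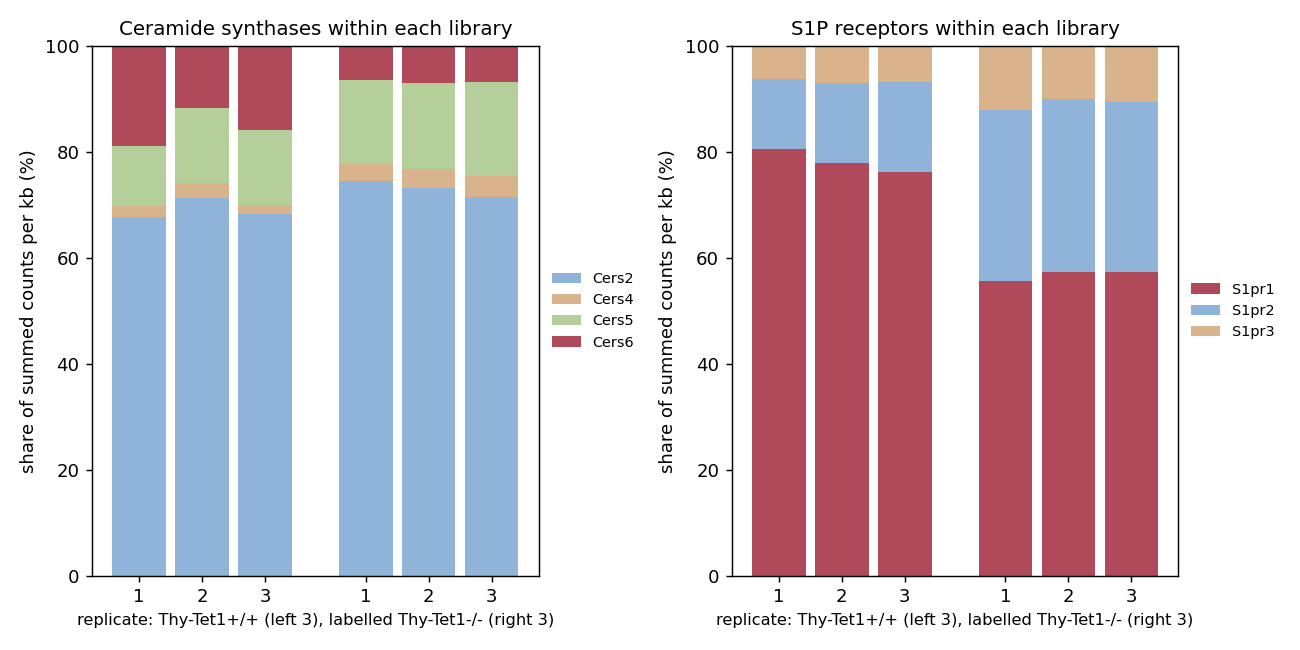
Stacked bars give the share, in percent, of each ceramide synthase (left) and of each S1P receptor (right) in the summed counts per kilobase of its family in each library, with replicates 1 to 3 of Thy-Tet1+/+ first and of the glands labelled Thy-Tet1-/- second. The Cers6 share was 15.5% and 6.73% on average, and the S1pr1 share 78.2% and 56.7%.

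Sgpl1 (chr10:61098642-61147703, minus strand), which cleaves S1P irreversibly, had 209, 191 and 249 CPM in Thy-Tet1+/+ and 255, 162 and 260 CPM in the glands labelled Thy-Tet1-/-. The second group held both the lowest and the highest value. Its log2 fold change was 0.06 (standard error 0.21).

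**Figure D3:**
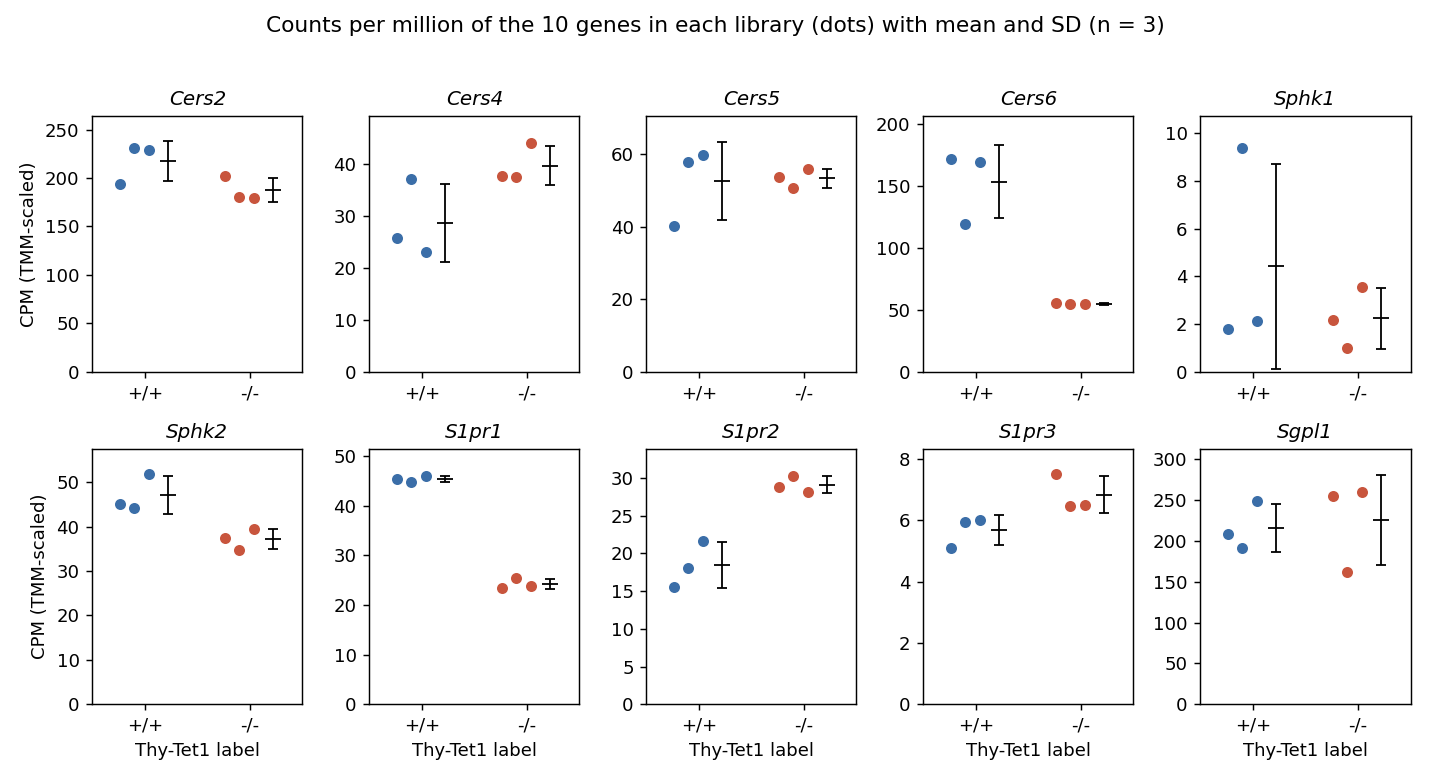
Each panel gives the TMM-scaled CPM of 1 gene in the 3 Thy-Tet1+/+ glands (blue) and the 3 glands labelled Thy-Tet1-/- (red), with mean and SD beside them (n = 3) and the axis starting at 0. Cers6, Sphk2 and S1pr1 are lower without overlap and Cers4, S1pr2 and S1pr3 higher, while 1 Thy-Tet1+/+ library stands apart for Sphk1.

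Groups did not overlap for 3 of the 10 genes in the higher direction and for 3 in the lower direction. Over all 14143 tested genes these shares were 12.5% higher and 14.3% lower. With a change of over 1.5 times and an unadjusted p under 0.05 as limits, 1 gene was counted as higher (S1pr2) and 2 as lower (Cers6 and S1pr1), and 5.54% and 3.66% of all tested genes were. Because the same contrast was known when the 10 genes were listed, nothing is read from these counts. The median log2 fold change of the 10 genes was -0.10. The libraries were scaled in 3 other ways. Library totals without TMM moved the median of all tested genes to 0.19, while RLE size factors left it at 0.012. Scaling to the follicular cell markers other than Tg, Tshr among them, moved it to 0.23. Relative to the median of all genes under each of the 15 alternatives, Cers6 ranged from -1.65 to -1.40, S1pr1 from -0.93 to -0.85, Cers2 from -0.30 to -0.17 and S1pr2 from 0.54 to 0.77. In the values as fitted, without that subtraction, Cers6, S1pr1 and S1pr2, and likewise Cers4, Sphk2 and S1pr3 kept their signs in all 15, whereas Cers2 changed sign under 1 alternative, Sphk1 under 1, Cers5 under 4 and Sgpl1 under 4. The groups of Sphk2 overlapped with library totals and with follicular marker scaling. The log2 fold change of Cers4 was 0.70 without Thy-Tet1+/+ replicate 2, that of S1pr2 was 0.54 without Thy-Tet1+/+ replicate 1, and that of Sphk1 was -1.95 with the skeletal muscle score as a covariate.

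**Figure D4:**
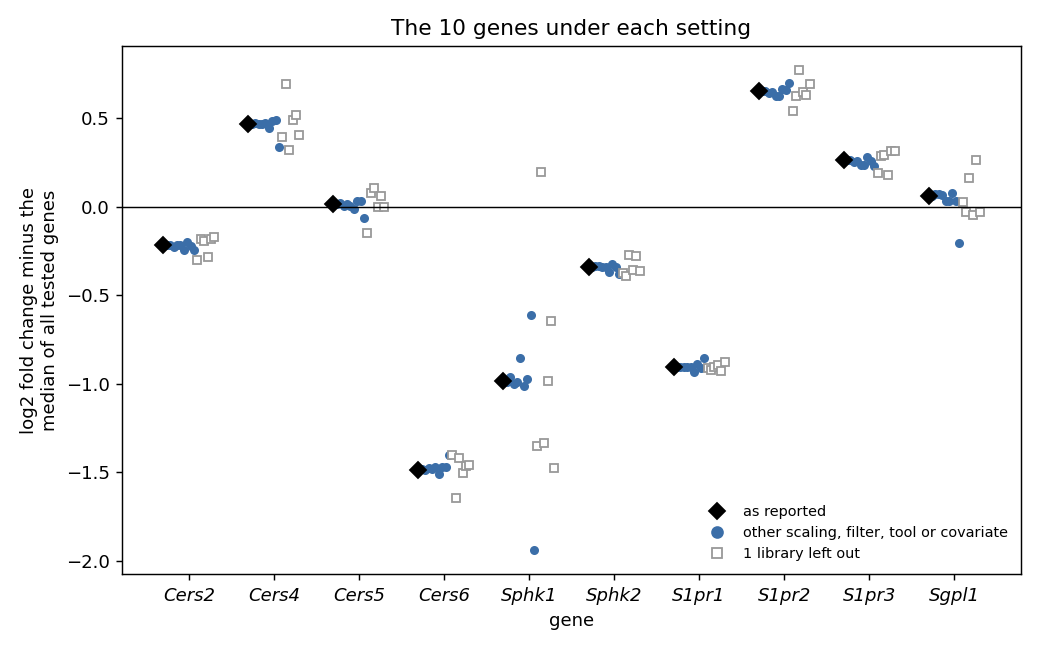
The log2 fold change of each of the 10 genes, minus the median of all tested genes, is given as reported (black), under another scaling, filter, tool or covariate (blue) and with 1 library left out (open squares). Cers2, Cers6, S1pr1 and Sphk2 stayed below 0 and Cers4, S1pr2 and S1pr3 above 0, while Sphk1 ran from -1.94 to 0.20.

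Levels per kilobase of the longest transcript were ordered as follows in Thy-Tet1+/+. Cers2 was highest with 98.3 ± 9.40 CPM per kilobase (SD, n = 3), followed by Sgpl1 with 49.6 ± 6.79. Cers6 (21.8 ± 4.19), Cers5 (19.0 ± 3.88) and S1pr1 (14.9 ± 0.222) came next, and neighbours among these 3 overlapped between libraries. Sphk2 followed with 13.3 ± 1.20. Cers4 (3.02 ± 0.786) and S1pr2 (2.89 ± 0.483) overlapped, as did S1pr3 (1.27 ± 0.112) and Sphk1 (1.09 ± 1.05), which came last. In the glands labelled Thy-Tet1-/- the order was Cers2 (84.6 ± 5.60), Sgpl1 (51.7 ± 12.7), Cers5 (19.2 ± 0.967), Sphk2 (10.5 ± 0.662), S1pr1 (7.96 ± 0.318), Cers6 (7.79 ± 0.0886), S1pr2 (4.55 ± 0.176), Cers4 (4.18 ± 0.391), S1pr3 (1.53 ± 0.134) and Sphk1 (0.553 ± 0.314). There S1pr1 overlapped Cers6 and S1pr2 overlapped Cers4. Cers6 was thus in place 3 of 10 in the first group and in place 6 in the second. With the shortest principal transcript in place of the longest, a choice made after the data were seen, Cers5 stood above Cers6 in both groups and Cers6 was in place 4 in the first.

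The genes whose log2 CPM was most like that of each of the 10 over the 6 libraries were picked from the other 14133 tested genes. For Cers6 they were Ficd (Pearson r = 0.999) and Gorasp2 (r = 0.999), for S1pr1 Tmem248 and Osbp (r = 0.996 for each), and for S1pr2 Zfp710 (r = 0.997) and Lin52 (r = 0.993). For Sphk2 they were Tmem39a (r = 0.990) and Trmt6 (r = 0.988). For Cers2 they were Cst6 and Dnajc19-ps, for Cers4 Arhgef40 and C1qtnf7, for Cers5 Wdr61 and Il1b, for Sphk1 Gm12185 and Tcp11, for S1pr3 Ephx3 and Lrrc71, and for Sgpl1 Gm14288 and Xlr4b, with r between 0.965 and 0.996. Among the 10 genes themselves, r was 0.975 between Cers6 and S1pr1 and -0.905 between S1pr1 and S1pr2. With 6 points that share the same group split, library depth and scaling, values of this size describe the libraries only.

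A further 59 genes of sphingolipid metabolism and S1P signalling were listed by role, and 52 passed the filter on low counts. Their median log2 fold change was -0.14, against 6.34e-04 over all tested genes. None had an adjusted p under 0.05 by edgeR's quasi-likelihood test, where 0.113% of all genes did. The Wald test of DESeq2 gave 8 genes (3 higher and 5 lower) whose adjusted p was under 0.05, where it gave 9.01% of all genes to which it assigned one, and limma-voom gave 0, where it gave 0.0919% of all genes. The unadjusted p of edgeR was under 0.05 for 3 genes on the higher side (5.77%) and 14 on the lower (26.9%), beside 8.71% and 10.2% of all tested genes. The limits of fold and unadjusted p were passed by 2 higher genes, S1pr4 and Hacl1, and by 3 lower genes, Spns2 and Sgms2 among them. These 5 were 9.62% of the 52, a share near the 9.20% of all tested genes. Groups did not overlap for 3 genes higher (5.77%) and 15 lower (28.8%), beside 12.5% and 14.3% of all tested genes. The lower side of the list moved with the scaling: its median was 0.043 with library totals and 0.083 with follicular marker scaling, each still below the medians of all genes given above, and 3 higher and 0 lower genes then passed the limits. The signs of fitted values given by role below are those with TMM scaling.

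Of the ceramide synthases and S1P receptors outside the 10, S1pr4, a receptor of leukocytes, was tested. It had 2.02, 2.03 and 1.61 CPM in Thy-Tet1+/+ and 4.85, 3.67 and 3.86 CPM in the glands labelled Thy-Tet1-/-. All 3 of the latter were above all 3 of the former. The log2 fold change was 1.13 (standard error 0.30, Benjamini-Hochberg adjusted p = 0.130 by the edgeR quasi-likelihood test), and the adjusted p ranged from 0.0368 (DESeq2) to 0.406 over the alternatives of edgeR, limma and DESeq2. The 10 lymphocyte markers summed to 104, 30.4 and 21.9 CPM against 22.9, 18.2 and 388 CPM, and the 8 macrophage markers to 124 to 425 CPM against 186 to 215 CPM. Both overlapped between the groups, and the part of leukocyte content in the S1pr4 level was not tested. Cers1 had 0 counts in every library, and it shares 1349 exonic bases with Gdf1 on the same strand, which also had 0 in every library. How reads common to both were assigned is not given in the sources used here, so these zeros set no upper limit on the Cers1 level. Cers3 had 1 to 5 counts per library and S1pr5 3 to 21, and neither passed the filter on low counts.

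Of 11 genes of de novo ceramide synthesis, 10 were tested, 5 with fitted values above and 5 below 0, and their median was -0.053. Sptlc2, a catalytic subunit of serine palmitoyltransferase, which starts the pathway, had 178 ± 17.3 CPM in Thy-Tet1+/+ and 127 ± 4.60 CPM in the glands labelled Thy-Tet1-/- (SD, n = 3), without overlap. Ormdl3, a regulator of that enzyme, had 80.1 ± 4.71 and 83.6 ± 21.6 CPM (SD, n = 3), with overlap. Sptssb had at most 10 counts and was not tested. All 4 ceramidases tested had fitted values below 0, with a median of -0.44, beside 7063 of 14143 tested genes with values below 0. Asah2, the neutral ceramidase, had 52.9, 57.3 and 49.8 CPM against 38.2, 37.6 and 34.3 CPM. Its groups did not overlap, and the log2 fold change was -0.54 with a standard error of 0.11. Asah1, the acid ceramidase of lysosomes, had 103 ± 12.3 and 93.2 ± 6.84 CPM (SD, n = 3), within the spread. Acer1 had 3 counts in 1 library and 0 in the others.

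Among 7 sphingomyelin synthases and sphingomyelinases, 6 had fitted values below 0 and the median was -0.18. Sgms2, a sphingomyelin synthase of the plasma membrane that uses ceramide, had 122, 182 and 135 CPM in Thy-Tet1+/+ and 101, 84.3 and 102 CPM in the glands labelled Thy-Tet1-/-. Each of the latter was below each of the former. The log2 fold change was -0.62 (standard error 0.17, Benjamini-Hochberg adjusted p = 0.147 by the edgeR quasi-likelihood test, 0.0315 to 0.363 over the alternatives). It failed the limits under 4 of 15 alternatives, among them without Thy-Tet1+/+ replicate 2 and without the gland labelled Thy-Tet1-/- replicate 2. Smpd1, the acid sphingomyelinase, had 87.1 ± 14.1 and 76.8 ± 8.61 CPM (SD, n = 3), with overlap.

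Of 6 tested glycosphingolipid enzymes, 4 had fitted values below 0, with a median of -0.23. Galc, the lysosomal galactosylceramidase, had 43.8 ± 4.14 and 41.4 ± 10.9 CPM (SD, n = 3), with overlap. Ugt8a had 3 to 22 counts and was not tested.

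None of the 4 genes of ceramide transfer and phosphorylation passed the limits, and their median was -0.0036. Col4a3bp, the ceramide transfer protein, had 117 ± 16.3 and 119 ± 5.90 CPM, and Cptp, which carries ceramide-1-phosphate, 23.4 ± 5.33 and 18.5 ± 0.302 CPM (SD, n = 3), both with overlap. Of the 7 tested S1P phosphatases and transporters, 4 had fitted values below 0. Spns2, which exports S1P from cells, had 18.4, 34.9 and 24.5 CPM in Thy-Tet1+/+ and 17.3, 16.9 and 14.2 CPM in the glands labelled Thy-Tet1-/-. The groups did not overlap, but the nearest libraries were about 1 CPM apart. Its log2 fold change was -0.69 (standard error 0.24, Benjamini-Hochberg adjusted p = 0.203 by the edgeR quasi-likelihood test, 0.118 to 0.446 over the alternatives), and it failed the limits under 5 of 15 alternatives, among them without Thy-Tet1+/+ replicate 2 and without the gland labelled Thy-Tet1-/- replicate 2 or 3. Plpp3, a lipid phosphate phosphatase, had 287 ± 86.1 and 223 ± 15.4 CPM, and Sgpp1, an S1P phosphatase, 88.1 ± 5.93 and 80.0 ± 6.59 CPM (SD, n = 3), with overlap. Apom, the plasma carrier of S1P, had 0 to 3 counts and was not tested.

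The list drawn up for S1P breakdown after the lyase held 6 genes, 3 with fitted values above and 3 below 0. Whether each of them acts on the products of the lyase was not examined. Hacl1, a peroxisomal lyase of 2-hydroxyacyl-CoA, had 5.93, 7.11 and 7.82 CPM in Thy-Tet1+/+ and 13.3, 13.6 and 12.7 CPM in the glands labelled Thy-Tet1-/-. Each of the latter was above each of the former. The log2 fold change was 0.92 (standard error 0.19, Benjamini-Hochberg adjusted p = 0.0965 by the edgeR quasi-likelihood test, 0.0016 by DESeq2 to 0.354 over the alternatives). It passed the limits under all 15 alternatives, as S1pr4 did. Its exons share 1540 bases with Gm49387 on the same strand, which the count table does not list, so part of these counts is uncertain. Hacd3, a 3-hydroxyacyl-CoA dehydratase, had 251 ± 25.3 and 199 ± 6.14 CPM, without overlap, and Hacd2, of the same family, 112 ± 13.5 and 111 ± 6.77 CPM (SD, n = 3), with overlap. All 7 G protein subunits used by S1P receptors had fitted values below 0 with TMM scaling, with a median of -0.22, beside the 7063 of 14143 tested genes. Gnai1, at -0.046, was nearest to 0, and library totals moved the median of all tested genes to 0.19. Gnai3, a Gi subunit, had 137 ± 11.4 and 106 ± 9.01 CPM, without overlap, and Gnai2, another, 239 ± 41.9 and 214 ± 8.71 CPM (SD, n = 3), with overlap.

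**Figure D5:**
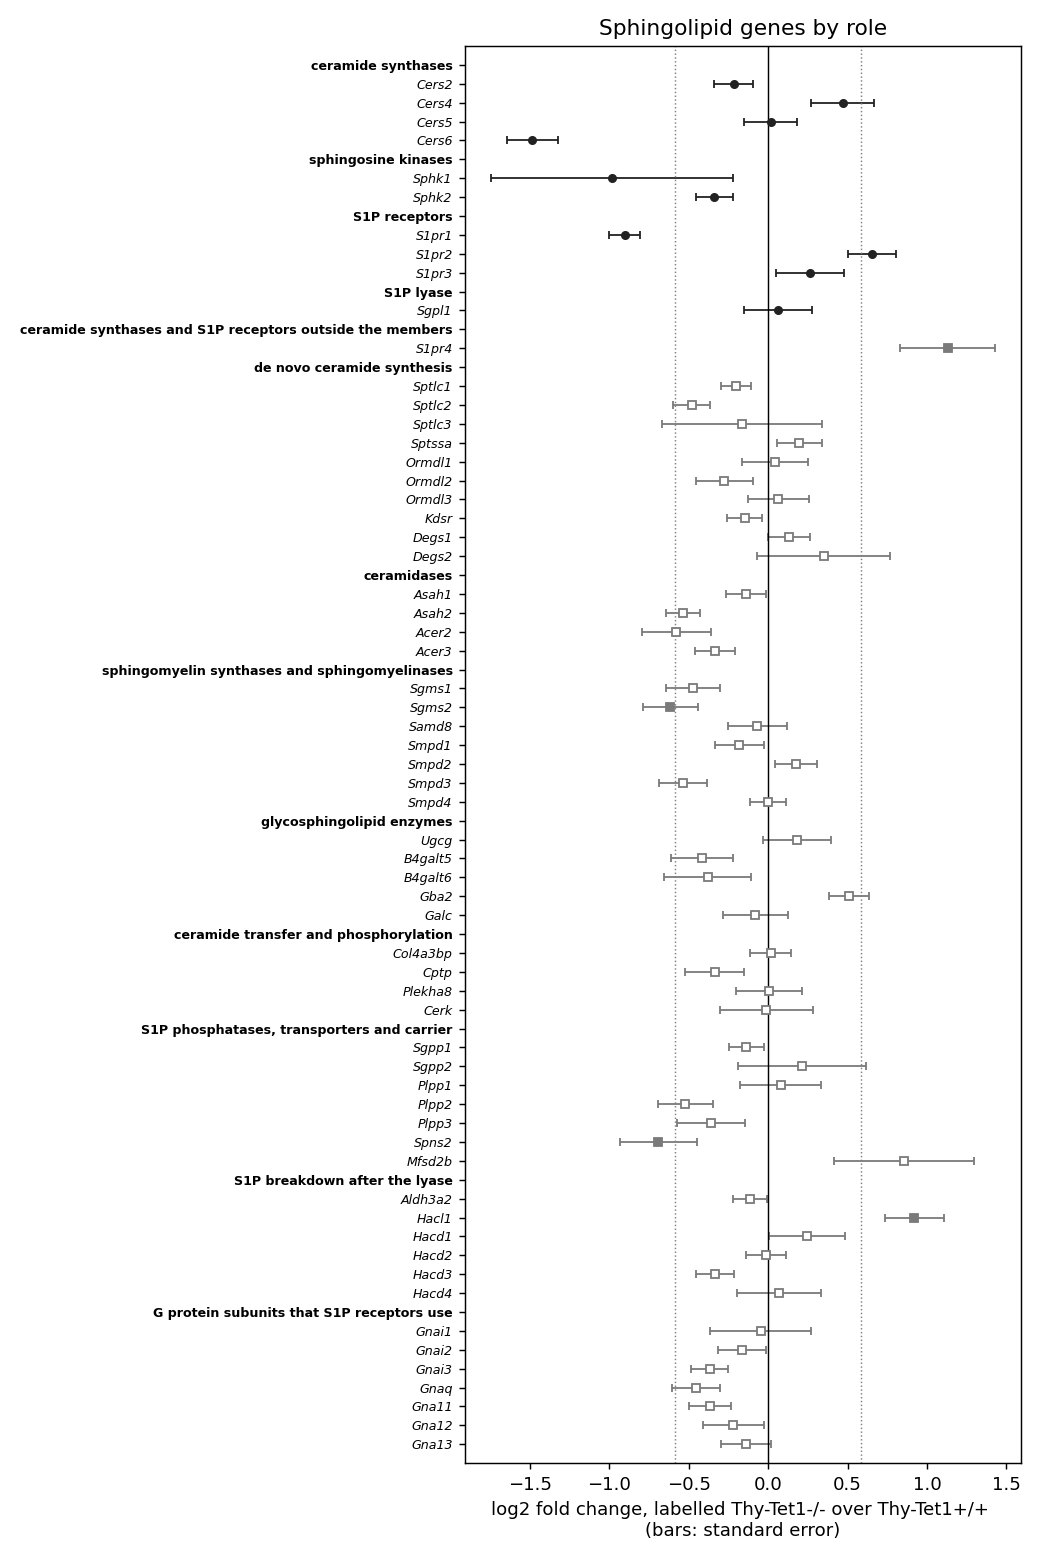
Points give the log2 fold change (glands labelled Thy-Tet1-/- over Thy-Tet1+/+) and bars its standard error for the 10 genes (circles) and further tested genes of the pathway (squares), grouped by role. Filled squares passed the limits, and dotted lines mark a change of 1.5 times. Cers6 at -1.48 lies lowest and S1pr4 at 1.13 highest.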

How the data were processed

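RNA was measured in 6 thyroid libraries, 3 per group, and groups were taken from the sample labels. The sample titles read control (taken as Thy-Tet1+/+) or treatment (taken as Thy-Tet1-/-) with a replicate number. The count columns, named C or T with a number, were matched to these titles by initial and number. The authors deposited raw counts per gene without normalization for 21878 genes. The submitters' processing notes name mm10, while the aligner, the counting program and its use of strand are not given in the sources used here. 27 symbols that had become dates were restored from NCBI gene identifiers. Libraries differed in depth from 8867683 to 19950898 counts, and the biological coefficient of variation was 0.327, so spread between libraries limits most comparisons. Nothing but the replicate number separates libraries within a group. The p-values weigh the group difference against the spread between these libraries, estimated with information shared across genes.

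The groups were compared by the quasi-likelihood test of edgeR 4.0.16 in R 4.3.3 (filterByExpr, TMM scaling, glmQLFit and glmQLFTest). The fit covered all 14143 genes that passed the filter, with Benjamini-Hochberg adjustment over all of them. The limits of the study were a change of over 1.5 times and an unadjusted p under 0.05. CPM values used TMM-scaled library sizes, and log2 CPM had a prior count of 2. Gene models and exon overlaps came from GENCODE M21, and promoter windows from RefSeq (GRCm38.p6). The code was tested on simulated data.

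The members, the gene lists and the marker lists were chosen with earlier results of these data known. Named genes were the 10 members, Tet1, Dbp, pathway genes past the limits, the 2 most abundant tested genes of each pathway group, pathway genes under the filter, and the 2 genes most like each member. Alternatives were RLE size factors, library totals, scaling to follicular markers other than Tg, DESeq2 1.42.0 and limma-voom (limma 3.58.1). Further ones were both other filters on low counts, the replicate block, a skeletal muscle covariate and each library left out in turn. For 1 pathway gene, the result is not reported here.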

Additional observations from a re-analysis of the deposited data

How the results depend on the processing

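The number of pathway genes past the limits, 5, was 3 with library totals and 3 with scaling to follicular markers, all of them higher and S1pr4 and Hacl1 among them. With each library left out in turn the number ranged from 3 to 8: it was 3 without Thy-Tet1+/+ replicate 2, and 8 without Thy-Tet1+/+ replicate 1, without Thy-Tet1+/+ replicate 3 and without the gland labelled Thy-Tet1-/- replicate 1. DESeq2 gave 8 pathway genes with an adjusted p under 0.05, where edgeR's quasi-likelihood test gave 0 under each of its settings and limma-voom 0. The median log2 fold change of the pathway genes, -0.14, was 0.043 with library totals and 0.083 with follicular marker scaling, by which the median of all genes was 0.19 and 0.23. Among the 10 members, the number past the limits was 2 to 4 with 1 library left out (main value 3). The number without overlap was then 5 to 8 (main value 6). In the main fit 9.20% of all tested genes were past the limits and 26.8% were without overlap. These shares are not given with a library left out. Smaller groups also separate more easily, so nothing is read from these member counts. The number of members without overlap has no value of its own under limma-voom, the replicate block or the muscle covariate, which use the same CPM. It was not computed for DESeq2, which sets its own size factors.

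Same-numbered libraries did not deviate together (r = -0.17, -0.37 and -0.19 over genes for replicates 1, 2 and 3), so the numbers were not taken as a pairing. The mean for different numbers, 0.12, is no separate comparison. Deviations were taken from the mean of each group, which ties it to the values for the same number. With the replicate block 3 members and 5 pathway genes were past the limits, 0 pathway genes had an adjusted p under 0.05 by edgeR, and the pathway median was -0.13. The shallowest library had 8867683 counts, where Sphk1 rested on 15 counts and S1pr4 on 17, and low genes such as these are the ones that depth limits.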
